A study of Homo sapiens with 4 samples.

Results

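The S100 genes described here are 10 genes of small calcium-binding proteins, S100A2, S100A3, S100A4, S100A6, S100A10, S100A11, S100A13, S100A14, S100A16 and S100P. They were taken from a list of genes and found on the arrays through the RefSeq accession of each probe, and all 10 were detected, that is, had a probe with a signal flagged by the scanner software as well above background, on each of the 4 arrays, as did 15708 genes or unnamed transcripts in all. The arrays held RNA of HCT116 cells, a human colorectal carcinoma line, that had been separated by repeated passage through a migration chamber into cells that crossed the membrane (MG cells) and cells that stayed behind (non-MG cells). Each of these subpopulations was treated for 48 h with 5 µM 5-azacytidine, a cytidine analog that inhibits DNA methyltransferases, or with vehicle, labelled as control. This gives 4 conditions, vehicle-treated and 5-azacytidine-treated non-MG cells and vehicle-treated and 5-azacytidine-treated MG cells, with 1 one-colour Agilent array each. All cells derive from the same line. With no replicate arrays there was no spread within a condition to test against. Differences are described against the spot error and against all genes of the same arrays.

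S100 proteins are small EF-hand proteins that mostly work as dimers. On binding calcium most of them expose a surface that docks onto target proteins such as annexins, cytoskeletal myosin or ezrin, and some are released from cells and bind receptors such as RAGE. Most of their genes lie in a cluster on chromosome 1 that also holds the genes of the epidermal differentiation complex. S100A4 and S100P are known for their links to cell motility and metastasis. The arrays were made to compare cells of high and low motility. The bulk RNA of a culture cannot tell fewer cells that express a gene from less RNA in each cell.

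The 250 bases before the start of 5 members are shown because CpG dinucleotides are the usual sites of DNA methylation in human cells and the treatment was a methyltransferase inhibitor, for the 3 genes that were higher in the MG cells with vehicle, for S100A14, the member with the lowest MG to non-MG ratio, and for S100P, the member with the largest 5-azacytidine ratio. They are RefSeq sequences of GRCh38.p14, written 5′ to 3′ along the gene, with CpG dinucleotides in capitals.
S100A2, chr1:153565845-153566094, minus strand: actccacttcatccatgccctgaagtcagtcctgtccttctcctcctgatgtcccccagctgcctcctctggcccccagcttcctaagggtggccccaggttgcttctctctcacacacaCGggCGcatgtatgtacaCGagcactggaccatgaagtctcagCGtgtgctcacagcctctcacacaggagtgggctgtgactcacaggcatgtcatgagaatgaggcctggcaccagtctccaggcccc
S100A3, chr1:153549259-153549508, minus strand: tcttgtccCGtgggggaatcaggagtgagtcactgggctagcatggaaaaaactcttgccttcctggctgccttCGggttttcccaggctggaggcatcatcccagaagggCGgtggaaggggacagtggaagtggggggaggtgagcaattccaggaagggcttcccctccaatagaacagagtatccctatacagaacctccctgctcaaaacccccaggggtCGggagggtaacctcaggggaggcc
S100A4, chr1:153545807-153546056, minus strand: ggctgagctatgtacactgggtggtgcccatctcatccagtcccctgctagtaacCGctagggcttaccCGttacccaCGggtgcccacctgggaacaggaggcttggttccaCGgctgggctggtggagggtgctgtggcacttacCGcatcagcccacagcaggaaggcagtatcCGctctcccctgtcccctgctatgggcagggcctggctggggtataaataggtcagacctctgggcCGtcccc
S100A14, chr1:153616326-153616575, minus strand: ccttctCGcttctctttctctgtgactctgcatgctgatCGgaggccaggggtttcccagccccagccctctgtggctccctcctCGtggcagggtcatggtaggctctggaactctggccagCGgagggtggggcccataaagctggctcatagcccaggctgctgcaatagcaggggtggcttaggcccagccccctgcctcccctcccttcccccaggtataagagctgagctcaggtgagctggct
S100P, chr4:6693628-6693877, plus strand: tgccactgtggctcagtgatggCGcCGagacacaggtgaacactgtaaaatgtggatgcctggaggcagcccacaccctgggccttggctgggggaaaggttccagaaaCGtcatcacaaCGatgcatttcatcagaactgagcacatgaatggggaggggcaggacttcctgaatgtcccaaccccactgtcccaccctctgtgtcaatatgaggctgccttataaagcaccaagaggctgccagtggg
These windows held few CpGs, with 7 for S100A4 and 4 for each of S100A2, S100A3, S100A14 and S100P, where the median of 22078 windows of protein-coding genes was 16, with quartiles of 5 and 25. All 10 members had a window. S100A10 and S100A6 had 24 CpGs each and S100A11 had 15, while the windows of S100A16 had 1 and 6. The 3 windows of S100A13 had 15, 10 and 8, and the further window of S100A2 had 3. The table does not pair windows with array probes, so the window that a probe measures is not known for S100A2, S100A13 and S100A16. Of 3 short motifs searched on both strands of the 250 bases, the TATA box TATAAA lay 31 bases before the start of S100A4 and 28 bases before that of S100P, and 29 bases before the start of 1 window of S100A13, and it was present in 9.03% of all windows. The AP-1 motif TGANTCA matched as TGACTCA 52 bases before the start of S100A2 and as TGAGTCA 225 bases before that of S100A3, and it was present in 5.37% of all windows. The E-box CACCTG was found in either orientation in the windows shown for S100A4, S100A14 and S100P, in windows of S100A16 and S100A2 that are not shown, and in 17.0% of all windows. These matches describe the sequence and were not tested for binding.

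Between the cell types with vehicle, S100A2, S100A3 and S100A4 were higher in the MG cells past 1.5-fold, and no member was lower past it. This is 3 of 10 members. Of all 15708 genes, 5.68% were higher and 8.24% lower past 1.5-fold, 13.9% in all. With 5-azacytidine in both cell types, the same 3 genes and S100A10 were higher, 4 of 10 members, where 5.74% of all genes were higher and 7.33% lower, 13.1% in all. Being higher past 1.5-fold under both treatments held for these 3 members and for 2.71% of all genes. With quantile normalization or scaling by the probes detected on every array, S100A4 and S100A10 did not pass it with 5-azacytidine, and S100A14 was lower past it. With quantile normalization S100A14 was also lower past it with vehicle. With normexp correction and median centring no member was lower past it. The members were chosen with earlier results of these data known, so setting their counts beside all genes is not a test. The median MG to non-MG log2 ratio was 0.01 for the members with vehicle and 0.39 with 5-azacytidine, compared with -0.01 and 0.02 for all genes. With vehicle the members ranged from -0.55 for S100A14 to 1.17 for S100A2.

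**Figure D1:**
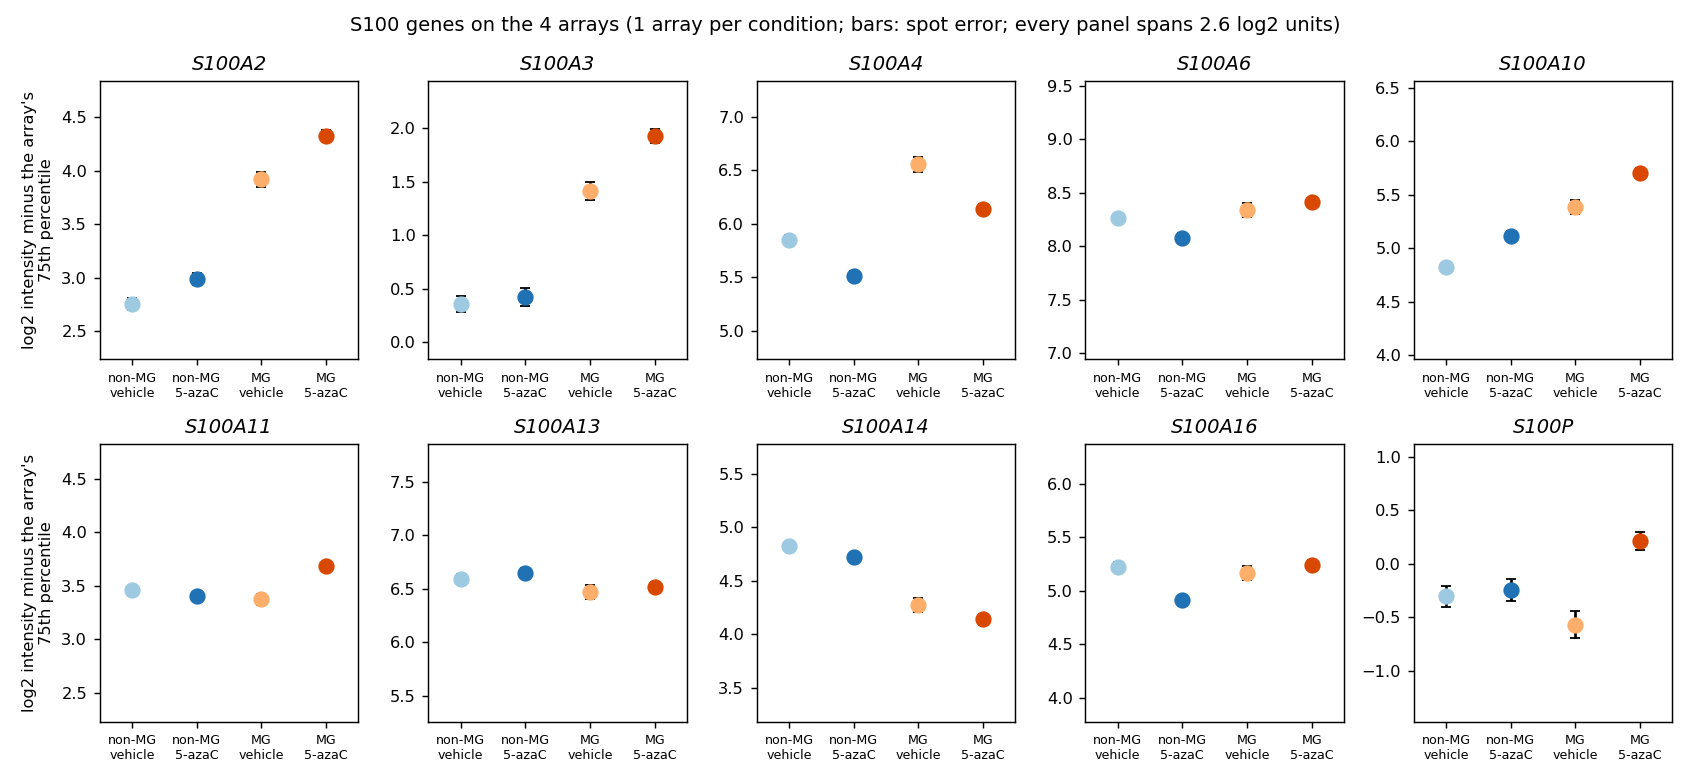
Each panel plots 1 S100 gene on the 4 arrays as log2 intensity minus the 75th percentile of its array, with 1 array per condition and bars for the spot error of 1 SD. Both arrays of MG cells lie above both arrays of non-MG cells for S100A2, S100A3, S100A4, S100A6 and S100A10, and below them for S100A13 and S100A14, and S100P is highest in the MG cells with 5-azacytidine at 0.22.

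S100A2 is an S100 protein of epithelial cells that is found in the nucleus and binds p53. Its log2 level, which is the log2 intensity minus the 75th percentile of its array, was 2.75 in vehicle-treated and 2.99 in 5-azacytidine-treated non-MG cells, and 3.92 in vehicle-treated and 4.33 in 5-azacytidine-treated MG cells. Both arrays of MG cells were above both arrays of non-MG cells. The MG to non-MG log2 ratio was 1.17 with vehicle (spot error 0.09), or 2.25-fold, and 1.34 with 5-azacytidine (spot error 0.08), or 2.53-fold. The spot error is the SD expected from spotting and scanning at that intensity, taken from probes spotted 10 times on the array, and it does not cover differences between cultures or labellings.

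S100A3, a cysteine-rich S100 protein best known from the hair cuticle, gave the largest ratio of the members with 5-azacytidine. Its log2 levels were 0.35 in vehicle-treated and 0.43 in 5-azacytidine-treated non-MG cells, and 1.41 and 1.93 in the MG cells. The MG cells were again above the non-MG cells under both treatments, and the MG cells with 5-azacytidine were highest. This makes S100A3 2.09-fold higher in the MG cells with vehicle (log2 ratio 1.06, spot error 0.11) and 2.84-fold higher with 5-azacytidine (spot error 0.11 on the log2 scale). Among all genes, the ratios of S100A2 lay at the 99.5th and 99.6th percentile with vehicle and with 5-azacytidine, and those of S100A3 at the 99.3rd and 99.7th.

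S100A4, also called metastasin, binds nonmuscle myosin IIA and is linked to cell motility. Its log2 level was 5.85 in vehicle-treated and 5.52 in 5-azacytidine-treated non-MG cells, and 6.56 and 6.14 in the MG cells. The gene was higher in the MG cells under both treatments, and lower with 5-azacytidine in both cell types. The difference was 1.63-fold with vehicle (log2 ratio 0.70, spot error 0.08) and 1.54-fold with 5-azacytidine (0.62, spot error 0.07). The latter did not pass 1.5-fold with quantile normalization or with scaling by the probes detected on every array, where the lowest log2 ratio was 0.54.

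S100A10 is the partner of annexin A2 and, unlike most of the family, binds its partner without calcium. Its log2 levels were 4.82 and 5.12 in the non-MG cells and 5.39 and 5.70 in the MG cells, each with vehicle and then with 5-azacytidine. The MG cells were above the non-MG cells, and 5-azacytidine was above vehicle in each cell type. The MG to non-MG log2 ratio was 0.56 with vehicle (spot error 0.08) and 0.59 with 5-azacytidine (spot error 0.07). These values lie on either side of the threshold of 1.5-fold, and within the spot error of it. Over the 7 alternatives of processing the ratio with vehicle ranged from 0.51 to 0.76 and passed 1.5-fold in 2. The ratio with 5-azacytidine passed it with normexp correction (0.67) and median centring (0.84). It did not with quantile normalization (0.50) or with scaling by the probes detected on every array (0.51). The brightest probe, all matched probes and the authors' values gave 0.59 again, since S100A10 has 1 probe and the authors' values differ by a small constant.

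S100A14, an S100 protein of epithelia, was the member with the lowest ratio. Its log2 levels were 4.82 in vehicle-treated and 4.72 in 5-azacytidine-treated non-MG cells, and 4.27 and 4.14 in the MG cells. Here the MG cells were below the non-MG cells under both treatments. The log2 ratio was -0.55 with vehicle (spot error 0.08) and -0.58 with 5-azacytidine (spot error 0.07), which is 1.47-fold and 1.49-fold and just short of the threshold. Quantile normalization took both past 1.5-fold, at -0.61 and -0.69, scaling by the probes detected on every array took the latter past it, at -0.66, and centring on the median brought them to -0.36 and -0.32. Of 11 colon epithelial markers detected on every array, CDH1, CLDN3 and CLDN4 were also lower in the vehicle-treated MG cells past 1.5-fold. Their log2 ratios were -0.66, -0.85 and -0.73, and the other 8 markers were within 1.5-fold. Of all genes, 8.24% were lower past it in that comparison. With 5-azacytidine CDH1 had a log2 ratio of -0.49, within 1.5-fold, and 2 of the 11 markers were lower past it. The paper reports CDH1 mRNA as unchanged between MG and non-MG cells, on its array and by qPCR. Its array data are the same arrays as used here. The authors' log2 ratios with vehicle differ from those given here by a constant of 0.004. The CDH1 ratio of -0.66 with vehicle had a spot error of 0.03 and rests on 1 array per condition. Why it differs from the reported result was not tested. The part of epithelial differences in the ratio of S100A14 was not tested.

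The other members differed less between the cell types. S100A6, or calcyclin, had log2 levels of 8.26 and 8.08 in non-MG cells and of 8.34 and 8.41 in MG cells, vehicle first, so that all 4 arrays lay close together. It had MG to non-MG log2 ratios of 0.08 with vehicle and 0.33 with 5-azacytidine. S100A16, a widely expressed S100 protein, had levels of 5.22, 4.91, 5.17 and 5.24 in the same order, lowest in the 5-azacytidine-treated non-MG cells, and ratios of -0.06 and 0.33. S100A13, which takes part in the release of FGF1 from cells, had levels of 6.59, 6.65, 6.47 and 6.51, with the MG cells slightly below the non-MG cells under both treatments, and ratios of -0.12 and -0.13. S100A11, or calgizzarin, a partner of annexin A1, was the member with more than 1 probe, and its mean levels were 3.46, 3.41, 3.38 and 3.68, highest in the 5-azacytidine-treated MG cells. Its probes gave ratios of -0.11 and -0.07 with vehicle and 0.25 and 0.30 with 5-azacytidine. RefSeq lists 10 pseudogenes of S100A11, and their transcripts could share sequence with these probes. S100P had -0.27 with vehicle (spot error 0.16) and 0.46 with 5-azacytidine (spot error 0.13). With centring on the median, S100A6, S100A16 and S100P also passed 1.5-fold with 5-azacytidine, at 0.59, 0.59 and 0.71. That centring moved the median of all genes by 0.26 in this comparison and by 0.20 with vehicle, and it moves every gene of a comparison by the same amount.

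**Figure D2:**
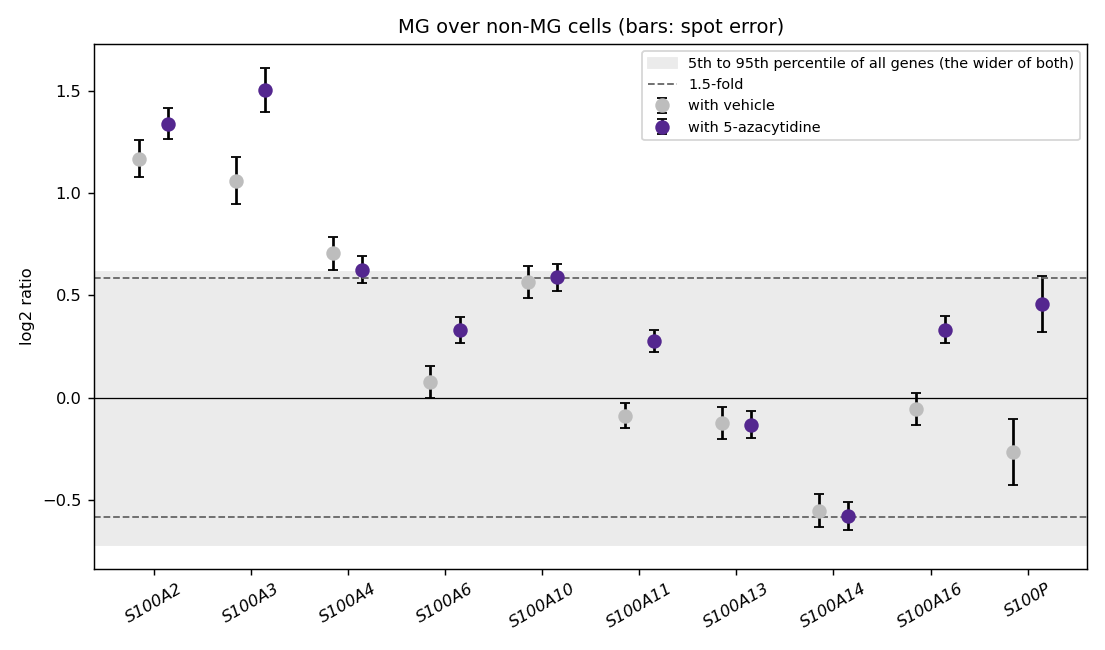
The vertical axis gives the MG to non-MG log2 ratio for each S100 gene, with vehicle in grey and with 5-azacytidine in purple, bars for the spot error, dashed lines at 1.5-fold and a band from the 5th to the 95th percentile of all genes, the wider limits of both treatments (-0.72 to 0.61). S100A2 stands at 1.17 and 1.34, S100A4 at 0.70 and 0.62, and S100A14 at -0.55 and -0.58.

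Of the members, 9 lie in the cluster on chromosome 1 and S100P lies on chromosome 4. In the order of the RefSeq table, S100A6, S100A5, S100A4, S100A3, S100A2, S100A16, S100A14 and S100A13 follow each other, with no other protein-coding gene between them. The 3 genes higher in the MG cells with vehicle are neighbours in this run, S100A4, S100A3 and S100A2. The ratio stepped from 0.08 at S100A6 to 1.17 at S100A2 and was -0.06 at S100A16, the next gene. S100A10 and S100A11 lie at the other end, with 47 further protein-coding genes inside the cluster. Of these 47, 44 had a probe and 7 were detected on all 4 arrays, and none of the 7 passed 1.5-fold between the cell types with either treatment, where 13.9% of all genes did with vehicle and 13.1% with 5-azacytidine. Of the 20 protein-coding genes on both sides of the cluster, 15 were detected on all 4 arrays and none passed 1.5-fold between the cell types either. Their median log2 ratio with vehicle was -0.17. With 5-azacytidine in MG cells 1 of the 15, GATAD2B, was lower past 1.5-fold, with a log2 ratio to vehicle of -0.75. Of all genes, 2.1% were lower past it in that comparison.

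**Figure D3:**
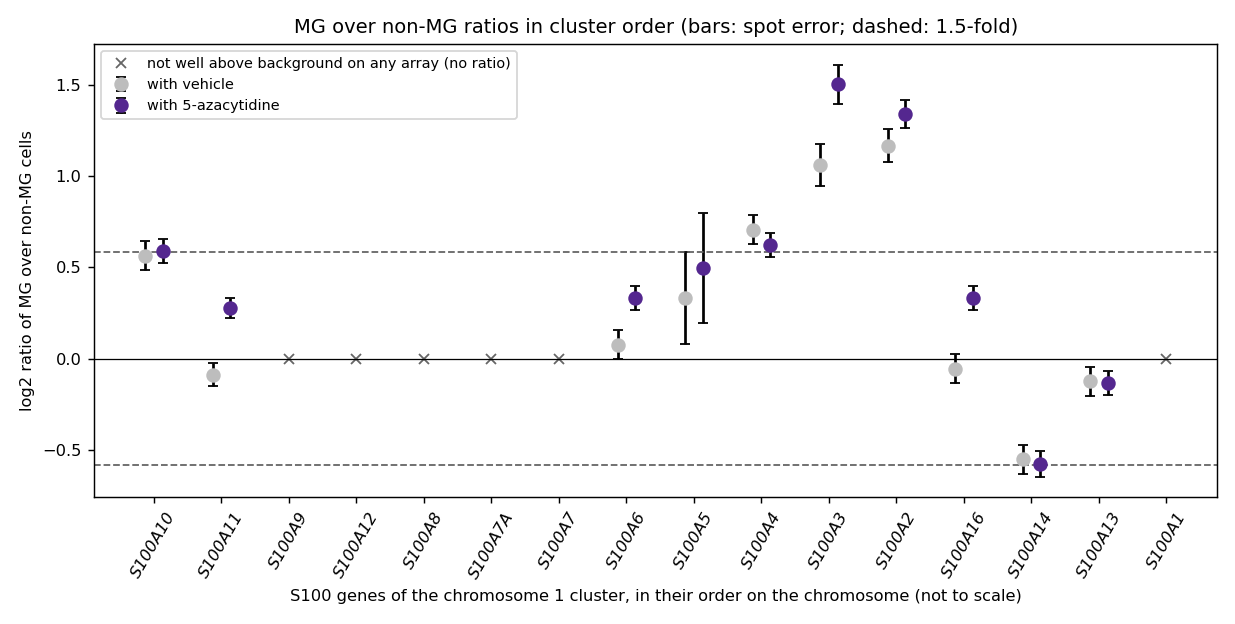
The MG to non-MG log2 ratio is plotted for the 16 S100 genes of the chromosome 1 cluster in their order, not to scale, with vehicle in grey and 5-azacytidine in purple, bars for the spot error and crosses for genes without a ratio. The neighbours S100A4, S100A3 and S100A2 lie above the upper dashed line at 1.5-fold, and the genes to their right lie below it.

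Few members, and few of all genes, differed past 1.5-fold between 5-azacytidine and vehicle. In the non-MG cells none of the 10 passed 1.5-fold, where 1.9% of all genes were higher and 1.68% lower, 3.58% in all. For MG cells, S100P was higher past 1.5-fold, 1 of 10 members, where 3.02% of all genes were higher and 2.1% lower, 5.12% in all. The median log2 ratio of the members was close to 0 for non-MG cells and 0.19 for MG cells, compared with -0.04 and -0.02 for all genes. These comparisons share their arrays with those between the cell types.

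S100P is an S100 protein that binds ezrin and RAGE. It was dim, with an intensity of 70.6 in vehicle-treated and 63.6 in 5-azacytidine-treated non-MG cells, and of 66.6 and 112 in the MG cells. After scaling, its log2 levels were -0.30, -0.24, -0.57 and 0.22 in the same order. The 5-azacytidine-treated MG cells thus stood above the other 3 arrays. The 5-azacytidine to vehicle log2 ratio was 0.78 in the MG cells (spot error 0.15), or 1.72-fold, and 0.06 in the non-MG cells (spot error 0.14). The difference between these ratios was 0.72 (spot error 0.21), and 3.55% of all genes had a difference above 1.5-fold in the same direction and 2.41% in the other. It was not tested, since each condition has 1 array. With normexp background correction the ratio in the MG cells was 0.38 and did not pass 1.5-fold. The leukocyte markers CD14 and CD68, 2 of 8 listed that were detected on every array, were also higher with 5-azacytidine in MG cells, CD14 with an intensity of 26.3 against 13.5 and CD68 with a log2 ratio of 0.82. CD14 was also higher in the non-MG cells, with a log2 ratio of 0.87, and CD68 had 0.30 there. The endothelial marker VWF had a log2 ratio of 0.70 in MG and 0.36 in non-MG cells, while PECAM1 and CDH5 were detected on no array. PTPRC, CD3E and ITGAM of leukocytes were also detected on none. The summed leukocyte markers were 1.14 to 2.27 times the 75th percentile intensity of an array. The part of these markers in the ratio of S100P was not tested.

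Among the members within 1.5-fold, S100A3 and S100A2 had log2 ratios of 0.52 (spot error 0.11) and 0.41 (spot error 0.09) in MG cells, and 0.07 and 0.24 in non-MG cells. S100A10 had nearly equal ratios in the non-MG and MG cells, 0.30 and 0.32. S100A4 had negative ratios in both, -0.33 (spot error 0.06) and -0.41 (spot error 0.08), at the 9.59th and 5.67th percentile of all genes. S100A16 and S100A6 had ratios of -0.31 and -0.18 for non-MG and of 0.07 each for MG cells. S100A11 had -0.06 and 0.31. S100A13 and S100A14 stayed between -0.13 and 0.06 in both cell types.

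**Figure D4:**
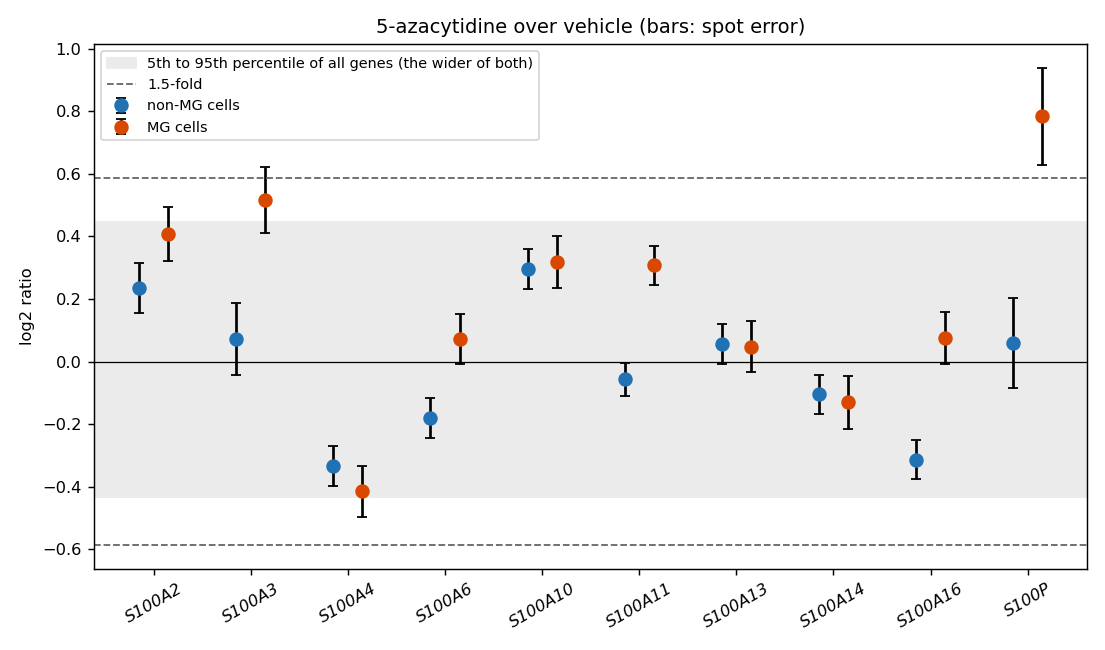
For each S100 gene the log2 ratio of 5-azacytidine over vehicle is shown in non-MG cells (blue) and MG cells (orange), with bars for the spot error, dashed lines at 1.5-fold and a band from the 5th to the 95th percentile of all genes, the wider limits of both cell types (-0.43 to 0.45). S100P in the MG cells lies at 0.78, above the dashed line, and S100A4 lies below 0 in both cell types.

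Of 11 other S100 genes, 10 had a matched probe, and 9 of these were detected on no array. They include S100A8, S100A9 and S100A12, the calgranulins of myeloid cells, S100A7, or psoriasin, of stratified epithelia, and S100B of glial cells. S100A5, which lies between S100A6 and S100A4, was detected on all 4 arrays, although it is not among the listed genes. Its intensity was 24.3 and 17.2 in the non-MG cells and 34.7 and 31.1 in the MG cells, each with vehicle and then with 5-azacytidine, and its MG to non-MG log2 ratios were 0.33 (spot error 0.25) and 0.50 (spot error 0.30). All probes of the 9 genes had intensities below the dimmest probe that counted as above background, which lay at 9.95 to 11.8 on the 4 arrays. None of the 7 S100-fused genes of the epidermal differentiation complex, such as FLG of filaggrin, was detected on any array.

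Of 21 genes of S100 partners and receptors, 16 were detected on all 4 arrays. Between the cell types with vehicle, CACYBP, the calcyclin-binding protein that S100A6 binds, was higher in the MG cells, with a log2 ratio of 0.66 as the mean over its probes, and the other 15 were within 1.5-fold. ANXA2, the partner of S100A10, had a ratio of 0.22, MYH9, the myosin heavy chain that S100A4 binds, -0.21, and EZR, the ezrin gene that S100P binds, -0.04. With 5-azacytidine ANXA6, a membrane-binding annexin, was higher in the MG cells, at 0.62. ANXA6 and AGER, the gene of RAGE, were lower with 5-azacytidine than with vehicle in non-MG cells, with log2 ratios of -0.67 and -0.64, and for MG cells none of the 16 passed 1.5-fold. AGER had MG to non-MG log2 ratios of -0.49 with vehicle and -0.43 with 5-azacytidine. Of all genes, 13.9% passed 1.5-fold between the cell types with vehicle and 13.1% with 5-azacytidine. Between 5-azacytidine and vehicle, 3.58% did in non-MG and 5.12% in MG cells. TLR4, CD36 and PADI3 were detected on no array.

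The genes whose pattern over the 4 arrays was closest to that of S100A4 were found among 12740 other named genes by the Euclidean distance of log2 levels, each centred on its mean. They were KIF18A, METTL4 and VSNL1, at distances from 0.09 to 0.10.

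On the arrays as a whole, 21384 to 21882 of 50594 probes were well above background and no spot was saturated. Of 13 colon epithelial markers, 11 were detected on all 4 arrays, and VIL1 and LGALS4 on none. KRT20, a keratin of differentiated intestinal epithelium, was the epithelial marker past 1.5-fold with 5-azacytidine. Its log2 ratios to vehicle were 1.42 in non-MG (spot error 0.32) and 1.85 in MG cells (spot error 0.25). It was dim, with intensities of 14.6 in vehicle-treated and 33.8 in 5-azacytidine-treated non-MG cells, and 19.4 and 68.4 in the MG cells. Of all genes, 1.9% in non-MG and 3.02% in MG cells were higher past 1.5-fold with 5-azacytidine. The MG to non-MG ratio of KRT20 with 5-azacytidine was 0.66 (spot error 0.19). Of 8 fibroblast markers, COL1A1 and ACTA2 were detected on every array, and COL1A2, COL3A1, DCN, LUM and PDGFRB on none. The log2 ratios of COL1A1 and ACTA2 between the vehicle-treated MG and non-MG cells were -0.92 and -0.85. Of all genes, 8.24% were lower past 1.5-fold in that comparison. With 5-azacytidine in both cell types, COL1A1 and ACTA2 were within 1.5-fold. The summed fibroblast markers were 1.67 to 2.82 times the 75th percentile intensity, and their part in the S100 ratios was not tested. Of 6 keratinocyte markers, KRT5, KRT1, IVL and LORICRIN were detected on no array, KRT10 was detected on all 4 arrays with its ratios within 1.5-fold, and KRT14 was detected in the 5-azacytidine-treated MG cells by probes with intensities of 25.5 and 22.1. All 4 arrays lay on 1 slide, row 1 holding the non-MG and row 2 the MG cells, column 3 the vehicle and column 4 the 5-azacytidine arrays, so that slide position and the conditions cannot be told apart.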

How the data were processed

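RNA of MG and non-MG HCT116 cells with 5 µM 5-azacytidine or vehicle was hybridized to 4 one-colour Agilent SurePrint G3 arrays, and conditions were taken from the sample labels. The authors deposited the scanner output of Agilent Feature Extraction 11.5.1.1, in which each spot has a background-corrected intensity, a median intensity, a local background intensity and flags, without normalization between arrays. A further deposited table holds the authors' log2 values of 24189 probes, median-centred per probe. According to the methods, GeneSpring was used, dim signals under the 20th percentile and flagged ones were removed, and the normalization is not given in the sources used here. Column differences of that table matched those of the log2 intensity up to 1 constant per array pair, within 0.01 for 100% of 24161 probes compared.

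After removal of control spots and outlier flags (5 probes), the level of each of 50594 probes was its log2 background-corrected intensity less the array's 75th percentile. Of 19809 probes detected (flagged as well above background) on every array, 16630 were named through their unversioned accession in RefSeq of GRCh38.p14. The ratios of these probes were averaged per gene, and 1.5-fold was used as the threshold, since the text of the paper names none. Spot error was interpolated by intensity from the SD between spots of repeated probes, 0.04 to 0.08 above a log2 intensity of 8 and 0.55 to 0.60 below 3. The number of arrays limits the precision.

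The members and gene lists were chosen with earlier results of these data known. Genes named are the members, and of the fixed lists (other S100 genes, partners and receptors, S100-fused genes, genes in and beside the cluster, cell type markers) those past 1.5-fold, and the genes closest in pattern to S100A4, any further ones being chosen after their values were seen. The 3 motifs were also chosen then. Promoter windows from 250 bases before to 50 after each start were taken from RefSeq, and the 250 bases before it were used. The alternatives were normexp correction with an offset of 50 on the median intensity, quantile normalization, median centring, scaling by probes detected on every array, the authors' values, the brightest probe, all matched probes, and thresholds of 2-fold and 1.4-fold. The genes closest in pattern to S100P are not reported here. The counting was tested on simulated data. Python 3.11.15, numpy 2.4.6, pandas 2.3.3, matplotlib 3.10.9, R 4.3.3 and limma 3.58.1 were used.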

Additional observations from a re-analysis of the deposited data

Results flagged for a closer look

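For S100A11 and S100P the direction of a ratio turned between conditions by more than the spot error on each side. The log2 ratio of 5-azacytidine over vehicle for S100A11 was -0.06 for non-MG and 0.31 for MG cells, a difference of 0.36, and its MG to non-MG ratio was correspondingly -0.09 with vehicle and 0.28 with 5-azacytidine, again 0.36 apart because the same 4 arrays are used. For the non-MG cells the S100A11 ratio was 0.01 with quantile normalization and 0.02 with scaling by the probes detected on every array, and its MG to non-MG ratio with vehicle was 0.11 with median centring, all above 0. The MG to non-MG ratio of S100P was -0.27 with vehicle and 0.46 with 5-azacytidine, a difference of 0.72. With normexp correction these ratios were -0.10 and 0.21, and with median centring -0.07 and 0.71, so that the ratio with vehicle lay within its spot error of 0.16. With 1 array per condition these differences were not tested.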

How the results depend on the processing

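S100A2 and S100A3 passed 1.5-fold between the cell types under both treatments with all 7 alternatives of processing and at 2-fold. Both have 1 probe, so the brightest probe and all matched probes returned the same values. The authors' values differed only by a constant of 0.004 with vehicle and 0.003 with 5-azacytidine. Normexp correction, quantile normalization, median centring and scaling by detected probes could move these ratios. Members past 1.5-fold either way between the cell types with vehicle numbered 3 to 4 over all 7 alternatives. S100A14 was lower with quantile normalization. There were 2 at 2-fold and 5 at 1.4-fold, where S100A10 (higher) and S100A14 (lower) joined. With 5-azacytidine in both cell types there were 7 with median centring, 2 at 2-fold and 3 to 5 otherwise. The 3 and the 5 each include S100A14, lower. The count for 5-azacytidine in the MG cells was 0 with normexp correction, 0 at 2-fold and 2 at 1.4-fold, where S100A3 joined S100P, and 1 with the other alternatives. In the non-MG cells it was 0 throughout. The causes were not tested. At 2-fold, 131 of all 15708 genes were higher and 250 lower between the cell types with vehicle, and 141 and 194 with 5-azacytidine. At 1.4-fold these were 1421 and 1832, and 1463 and 1684. For 5-azacytidine over vehicle they were 143 and 30 in MG and 76 and 16 in non-MG cells at 2-fold. At 1.4-fold they were 658 and 573 in MG and 484 and 543 in non-MG cells. Of 280 member ratios recomputed, 205 moved by less than their spot error and 75 by more. With the brightest probe, all matched probes and the authors' values, which repeat nearly the same values, 0 of 40 moved by more in each. Median centring moved 28 of 40 by more, normexp correction 23, scaling by detected probes 15 and quantile normalization 9. No ratio past 1.5-fold changed its sign, and 11 smaller ones did, the largest of these being -0.13 for S100A13 before the change. Median centring moved the median log2 ratio of all genes by 0.20 between the cell types with vehicle, by 0.26 with 5-azacytidine and by -0.10 for 5-azacytidine in the non-MG cells. Between the cell types, the genes past 1.5-fold were 892 higher and 1295 lower (40.8% higher) with vehicle and 902 and 1151 (43.9%) with 5-azacytidine, compared with 2127 and 601 (78.0%) and 3005 and 397 (88.3%) with median centring, 465 and 328 (58.6%) and 721 and 182 (79.8%) with normexp correction, and, with 5-azacytidine, 577 and 1574 (26.8%) when scaled by detected probes. For 5-azacytidine over vehicle they were 298 and 264 (53.0%) in non-MG cells, compared with 198 and 539 (26.9%) with median centring, 55 and 78 (41.4%) with normexp correction and 435 and 165 (72.5%) when scaled by detected probes, and 474 and 330 (59.0%) in MG cells, compared with 137 and 49 (73.7%) with normexp correction. Taking all matched probes, detected or not, tested 40909 genes or transcripts and gave 3425 and 6436, 3303 and 6608, 4502 and 3426, and 4180 and 3727 in the 4 comparisons. Without replicates, ratios of genes as dim as S100P and S100A5 are limited by the spot error. No pairing by replicate was possible because each condition has 1 array. An additive fit of cell type and treatment over the 4 arrays, which takes the difference between treatments as error, was not run. The slide could not be fitted as a block because there is 1 slide.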
